A study of Mus musculus with 12 samples.

Results

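Transcripts with a peak or a trough at the middle of 3 priming times were sought in primordial germ cell-like cell (PGCLC) cultures of TKO embryonic stem cells. The TKO_48h group was set against the average of the TKO_40h and TKO_96h group means, so that 9 of the 12 libraries of the series were compared. All came from the mouse line E14TG2a, grown without serum in 2i with vitamin C and LIF. The cells were primed to epiblast-like cells (EpiLC) for 40, 48 or 96 h and then cultured for 4 days as low-adhesion aggregates with BMP4, BMP8, SCF, EGF and LIF. TKO denotes in this study the loss of the DNA methyltransferases Dnmt1, Dnmt3a and Dnmt3b, which all 9 libraries shared. The groups were TKO_40h, TKO_48h and TKO_96h, with 3 libraries labelled as biological replicates in each. The 3 wild-type libraries primed for 40 h (WT_40h) entered the tests only through the normalization factors, save in 1 alternative that fitted all 12 libraries, and their levels are given beside some genes. The labels do not say how many TKO clones were used, whether PGCLCs were sorted before RNA was extracted, or which cultures were handled together, so priming time and culture batch cannot be told apart.

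Primordial germ cells are the embryonic founders of sperm and eggs. In culture, naive stem cells first become competent as EpiLCs for a short period, and BMP4 then induces the germ cell program in part of the aggregate. Among the genes described here are targets of the hypoxia-inducible factors (HIFs), transcription factors whose alpha subunits are marked for destruction by oxygen-dependent prolyl hydroxylases. When oxygen is limiting, HIFs accumulate, bind DNA at a core ACGTG motif, and induce glucose transporters, glycolytic enzymes and their own hydroxylases.

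The 9 libraries held between 6570180 and 8798136 estimated counts, and 15675 genes passed the filter on low counts. Dnmt1, Dnmt3a and Dnmt3b were lower in every TKO library than in every WT_40h library, at 64.4 to 152 CPM (counts scaled to library size) against 425 to 449 CPM for Dnmt1, 25.2 to 73.2 against 358 to 435 CPM for Dnmt3a, and 13.3 to 55.3 against 157 to 215 CPM for Dnmt3b. Counts summed over a whole gene cannot show a deleted exon. Pou5f1, Sox2 and Nanog were present at 225 CPM or more in all 9 libraries and did not pass the test of 48 h against the mean of 40 and 96 h. Of the germ cell markers, Prdm1, Tfap2c and Dppa3 were called higher at 48 h than the mean of 40 and 96 h, that of Dppa3 with 48 h libraries overlapping those at 40 h, and Prdm14, Nanos3, Dnd1 and Kit were not called. TKO_48h replicate 1 stood apart from the other libraries, with 13562 genes of at least 10 counts. In the 48 h libraries ribosomal RNA genes took 1.78 to 2.15% of counts, against 0.907 to 1.11% at 40 h and 1.24 to 1.63% at 96 h. Transcripts rich in G and C were higher and transcripts poor in them lower in the 48 h libraries, most of all in replicate 1. In the 1 of 10 equal groups of genes with the lowest GC content, the median deviation from the 9-library mean was -0.43, 0.02 and -0.05 on the log2 scale in the 3 libraries at 48 h, and 0.03 to 0.16 in the 6 others. In the group of highest GC content it was 0.21, 0.13 and 0.13 at 48 h, and -0.09 to 0.02 in the 6 others. Counts of calls are therefore given also from a fit that takes out the trend with GC content in each library (the GC-offset fit) and from a fit without TKO_48h replicate 1.

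**Figure D1:**
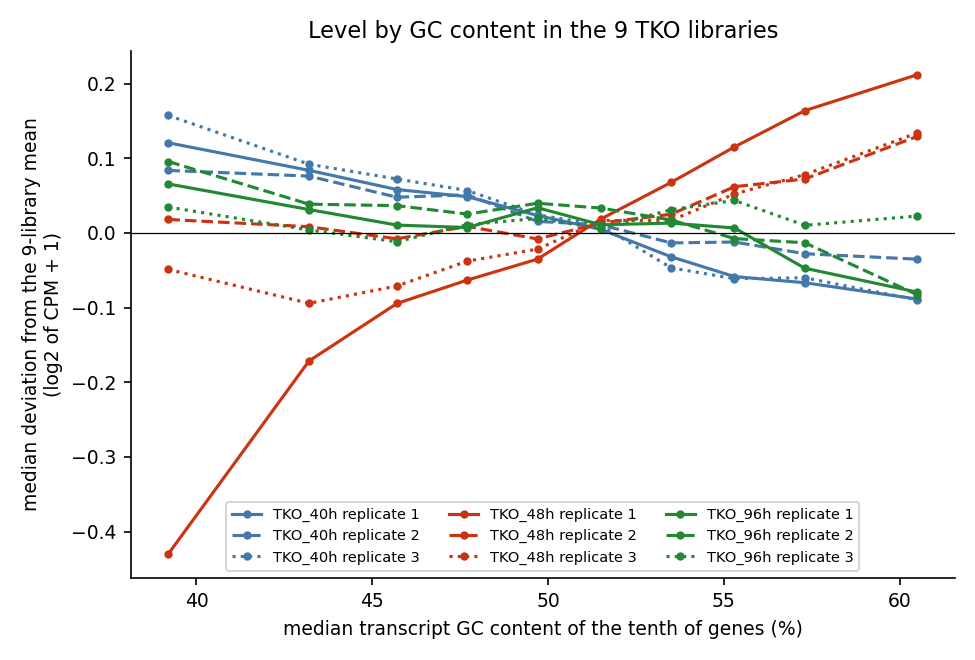
Median deviation from the mean of the 9 TKO libraries (log2 of CPM + 1) for 10 equal groups of the tested genes ordered by transcript GC content; each line is 1 library, coloured by priming time. The 48 h lines climb with GC content, TKO_48h replicate 1 most steeply with -0.43 at the low end, and the 40 h lines decline.

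At 48 h, 1818 of 15675 genes (11.6%) differed from the mean of 40 and 96 h at an adjusted p under 0.05 in edgeR's quasi-likelihood test with Benjamini-Hochberg adjustment. Of these, 1030 genes were higher (6.57%) and 788 were lower (5.03%), by at least 2-fold in 388 (2.48%) and 130 (0.829%). All 3 libraries at 48 h lay above all 6 others for 1070 genes (6.83%) and below all 6 for 881 genes (5.62%). For most called genes the test against 96 h passed and the test against 40 h did not. Among the 1030 higher genes, 724 (70.3%) differed from 96 h and not from 40 h, 53 (5.15%) from 40 h alone, 199 (19.3%) from both, and 54 from neither when each neighbour was tested singly. Among the 788 lower genes the same classes held 494 (62.7%), 85, 153 and 56 genes. Set against 96 h alone, 48 h was higher in 1518 genes (9.68%) and lower in 1301 genes (8.3%), and set against 40 h alone it was higher in 290 (1.85%) and lower in 324 (2.07%). The 96 h libraries differed from the 40 h libraries in 1677 genes (10.7%), with 689 higher (4.4%) and 988 lower (6.3%) at 96 h. In bulk RNA, a different share of cells of one type and a different amount of RNA per cell cannot be told apart.

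A gene was called a peak or a trough only if it differed from both neighbouring times in the same direction, by the larger of the 2 p-values, adjusted over all genes. There were 85 peaks (0.542%) and 55 troughs (0.351%), in all 140 genes (0.893%). Both tests share the 48 h libraries, so an error in those libraries would enter both. The median log2 fold change of the peaks was 0.97 against 40 h and 1.48 against 96 h. That of the troughs was -0.84 against 40 h and -0.93 against 96 h. All 140 genes kept their direction and stayed called in the averaged contrast when any single library was left out, but the peak and trough calls did not all last. Without TKO_40h replicate 1, replicate 2 or replicate 3 there were 11, 10 and 37 peaks and 8, 6 and 14 troughs. Without TKO_48h replicate 1 there were 36 peaks and 22 troughs, without TKO_48h replicate 2 there were 141 troughs, without TKO_48h replicate 3 there were 32 peaks and 12 troughs, and without TKO_96h replicate 2 there were 28 troughs. The GC-offset fit gave 41 peaks and 31 troughs, of which 36 and 21 were among the 85 and 55. TKO_96h replicate 1 had the highest share of mitochondrial mRNA of the 9 libraries (1.87%), and the fit without it and TKO_48h replicate 1 gave 86 peaks and 80 troughs, which held 107 of the 140 genes (76.4%). The median GC content was 56.8% in the peaks, 42.7% in the troughs and 50.5% in all tested genes. The part of GC content and of RNA quality in these calls was not tested beyond these fits.

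**Figure D2:**
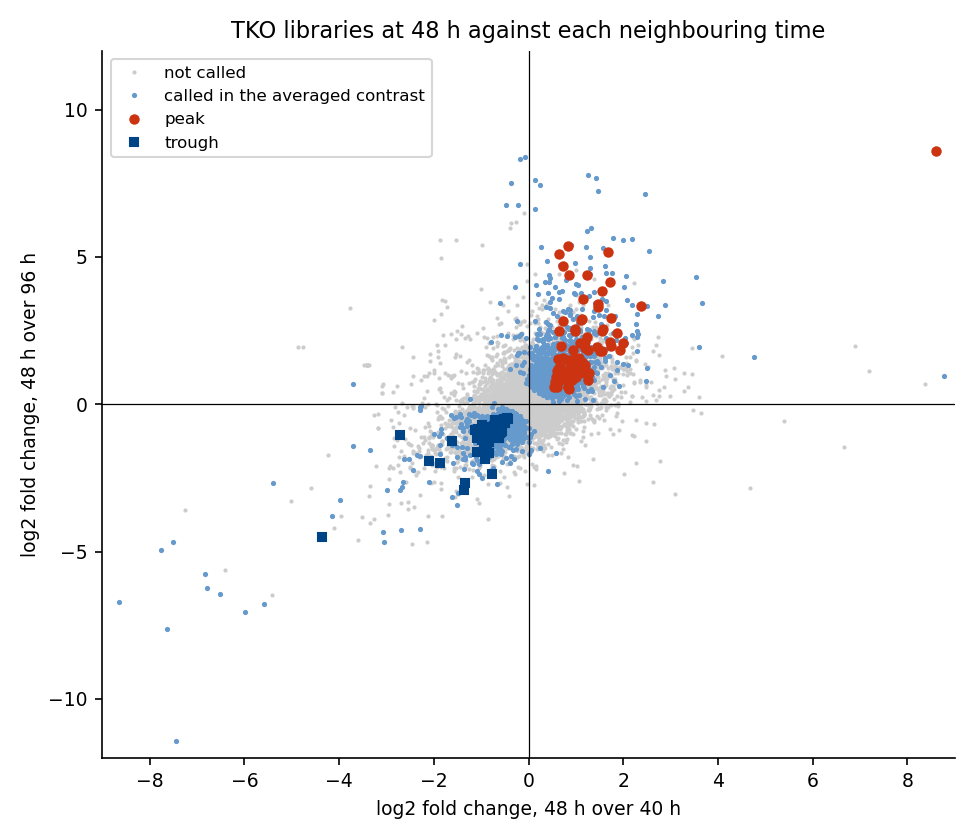
Log2 fold change of 48 h over 40 h (x axis) and of 48 h over 96 h (y axis) for the 15675 tested genes of the 9 TKO libraries, with the 85 peaks, the 55 troughs and the other called genes marked. Both axes share the 48 h libraries, and most blue points lie farther from 0 on the 96 h axis than on the 40 h axis; the peak at the far upper right is the pseudogene Gm2274.

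Genes of the hypoxia response were the group with the most peaks of the 32 lists. The lists were chosen with earlier results of these data known, so this ranking is a description. Of the 20 hypoxia genes listed, all tested, 17 were higher at 48 h than the mean of 40 and 96 h. None was lower, and 9 were peaks. The median log2 fold change of the list was 1.77 in the averaged contrast, against -0.02 over all tested genes. The list stood higher at 48 h than at 40 h in 11 genes, where 1.85% of all tested genes did, and higher than at 96 h in 19 genes, where 9.68% did. The GC-offset fit called 18 genes higher, with 6 peaks, and the fit without TKO_48h replicate 1 called 16 higher, with 4 peaks. The list's median GC content was 51.2%.

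Short stretches before the transcription start that RefSeq annotates are shown for 3 of these 9 peak genes. Each of the 3 genes has only 1 annotated start among the promoters used. The stretches hold the core motif that HIFs are known to bind and lie outside the gene models used for the counts. A peak gene not shown failed at least 1 of these rules, and may still hold the motif. The motif searched was ACGTG on either strand (CACGT on the strand shown), in the 250 bases before the start, and a CACGTG, which holds both forms, is capitalised whole. The sequences are from RefSeq on GRCm38, read 5′ to 3′ on the gene's strand, with the motif in capitals.
Bnip3: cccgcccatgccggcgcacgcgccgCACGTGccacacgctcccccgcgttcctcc
Ddit4: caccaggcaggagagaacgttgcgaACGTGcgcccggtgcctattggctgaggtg
Egln3: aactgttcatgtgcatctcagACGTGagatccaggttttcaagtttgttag
The Bnip3 stretch lies at chr7:138909585-138909639, that of Ddit4 at chr10:59951928-59951982, and that of Egln3 at chr12:54204074-54204124, all on the minus strand. The motif began 108 bases before the RefSeq start in Bnip3, 187 in Ddit4 and 229 in Egln3. Of the 20 hypoxia genes, 15 had a promoter in the table and 12 of these 15 (80.0%) held the motif before at least 1 annotated start. Of the 19 glycolysis genes, 18 had a promoter and 9 (50.0%) held it. Both lists were chosen with earlier results of these data known, so these shares are descriptions. The motif was found in 2764 of 11505 tested genes with a promoter (24.0%), in 23 of 67 peak genes (34.3%) and in 13 of 42 trough genes (31.0%). A match is a description of letters, not evidence of a binding site.

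Egln1, the main prolyl hydroxylase acting on HIF alpha subunits, had 75.0, 73.1 and 73.7 CPM at 40 h, 178, 183 and 161 CPM at 48 h and 30.5, 36.7 and 39.1 CPM at 96 h. The 3 groups did not overlap, with 48 h highest and 96 h lowest. The log2 fold change at 48 h was 1.23 over 40 h (adjusted p = 3.9e-05) and 2.29 over 96 h (adjusted p = 3e-09), and the peak had an adjusted p of 0.00012. In the averaged contrast its log2 fold change was 1.76 ± 0.10 (SE). Bhlhe40, a basic helix-loop-helix repressor, had 87.8, 75.4 and 78.5 CPM at 40 h, 245, 227 and 195 CPM at 48 h and 23.3, 18.1 and 26.0 CPM at 96 h (peak adjusted p = 0.00012). Its lowest 48 h library stood above its highest 40 h library by more than the range within either group. Ero1l, an oxidase that forms disulfide bonds in the endoplasmic reticulum, had 82.9, 86.1 and 102 CPM at 40 h, 165, 200 and 171 CPM at 48 h and 31.6, 27.6 and 37.0 CPM at 96 h (peak adjusted p = 0.0033). Egln1, Bhlhe40 and Ero1l stayed peaks with each of the 9 libraries left out in turn and in the GC-offset fit.

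Ndrg1, a stress-responsive gene of the N-myc downstream-regulated family, had 32.6, 38.4 and 56.3 CPM at 40 h, 114, 101 and 86.0 CPM at 48 h and 5.13, 5.19 and 4.10 CPM at 96 h. The 48 h libraries were highest and the 96 h libraries lowest, without overlap (peak adjusted p = 0.0045, 0.010 in the GC-offset fit and 0.022 without TKO_48h replicate 1). In all 9 peaks of the list the difference from 96 h was larger than that from 40 h. Bnip3, a receptor for the removal of mitochondria, had 163, 172 and 215 CPM at 40 h, 327, 303 and 283 CPM at 48 h and 11.3, 14.9 and 8.86 CPM at 96 h. Its log2 fold change at 48 h was 0.73 over 40 h and 4.70 over 96 h. Egln3, a further prolyl hydroxylase, showed the same order, with 60.6, 62.6 and 73.7 CPM at 40 h, 122, 92.2 and 95.1 CPM at 48 h and 2.87, 3.51 and 2.64 CPM at 96 h. Vegfa, the angiogenic growth factor, Adm, which encodes the peptide adrenomedullin, and Ddit4, an inhibitor of mTORC1, were the remaining peaks, with log2 fold changes at 48 h over 40 h of 1.15, 1.73 and 0.73. These 5 peaks ended without TKO_48h replicate 1, with peak adjusted p of 0.078 for Bnip3, 0.18 for Egln3, 0.078 for Vegfa, 0.087 for Adm and 0.18 for Ddit4. They were lost without other libraries too. Of the 9 fits with 1 library left out, Bnip3 and Adm held in 5, Vegfa in 3, and Egln3 and Ddit4 in 2. In the GC-offset fit Bnip3 and Adm stayed peaks (both adjusted p = 0.035). Egln3, Vegfa and Ddit4 did not (adjusted p = 0.056, 0.052 and 0.16). The GC content of Vegfa came from a transcript of 513 bases, and the effect of that choice was not tested. Without both TKO_48h replicate 1 and TKO_96h replicate 1, Bnip3, Vegfa, Adm and Ddit4 were peaks (adjusted p = 0.031, 0.034, 0.047 and 0.048) and Egln3 was not (adjusted p = 0.10).

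Other genes of the list did not stand apart from 40 h by the peak test. P4ha1, a collagen prolyl hydroxylase subunit, had 146, 136 and 146 CPM at 40 h, 196, 194 and 174 CPM at 48 h and 14, 13.9 and 13.2 CPM at 96 h (peak adjusted p = 0.099). Car9, a carbonic anhydrase of the cell surface, had 0.00, 1.46 and 1.51 CPM at 40 h, 5.45, 7.52 and 8.84 CPM at 48 h and 0.453, 0.701 and 0.00 CPM at 96 h (peak adjusted p = 0.18). Kdm3a, a histone demethylase, had 325 to 371 CPM at 40 h, 331 to 379 CPM at 48 h and 253 to 283 CPM at 96 h and was not called in the averaged contrast (adjusted p = 0.14). Higd1a and Hilpda were the other genes of the list not called.

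**Figure D3:**
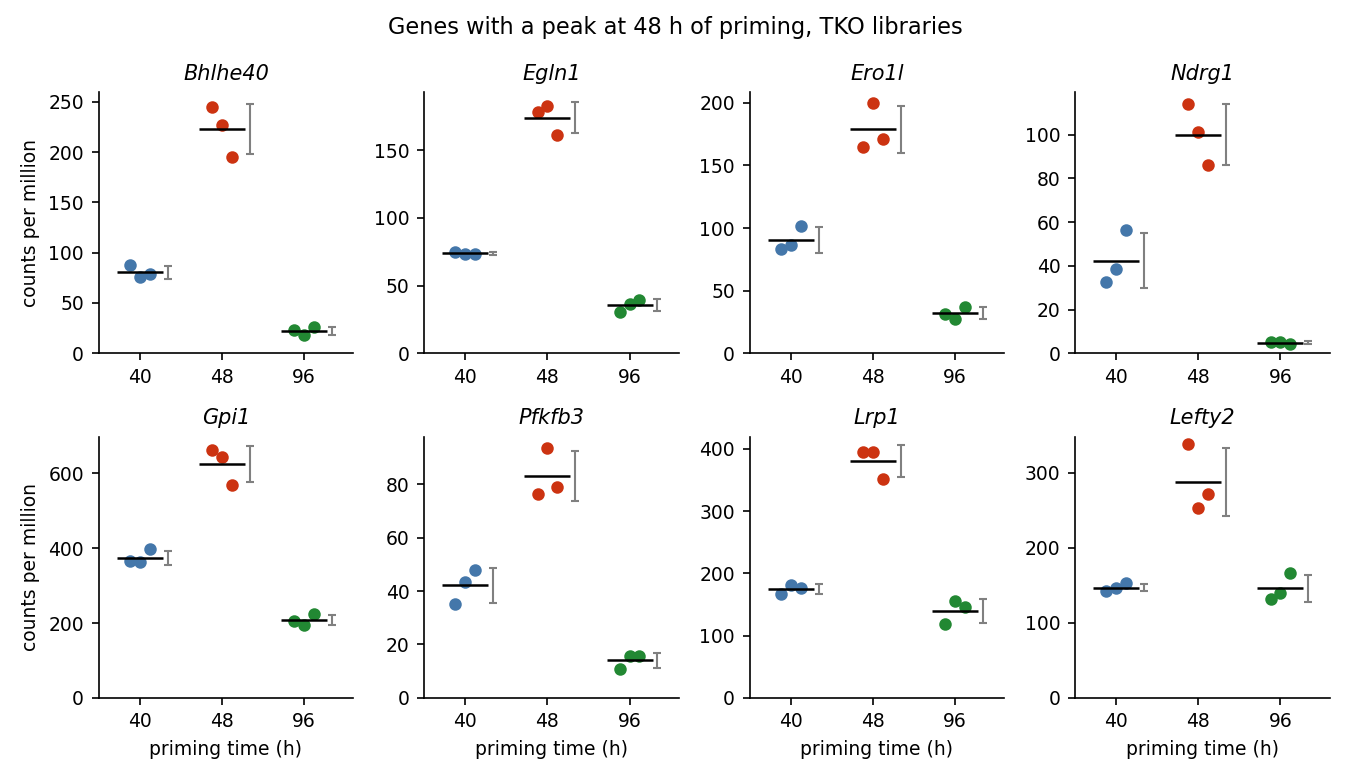
CPM of 8 peak genes in each of the 9 TKO libraries by priming time; dots are libraries, black lines group means and grey bars SD (n = 3). In all 8 panels the 48 h libraries lie above every 40 h and 96 h library, for Egln1 between 161 and 183 CPM.

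All 19 glycolysis genes were higher at 48 h than the mean of 40 and 96 h, and 5 of them, Hk1, Gpi1, Aldoa, Aldoc and Pfkfb3, were peaks. The list's median log2 fold change was 1.44 in the averaged contrast, 0.44 over 40 h and 2.47 over 96 h. Its 19 genes were all higher than at 96 h, and 8 were higher than at 40 h. The GC-offset fit called the same number, 19, with 3 peaks, and the fit without TKO_48h replicate 1 called 19 with 4 peaks. Summed over the list, the level was 14300 to 15100 CPM at 40 h, 17500 to 22100 CPM at 48 h and 6510 to 6830 CPM at 96 h.

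Along the pathway, the glucose transporters Slc2a1 and Slc2a3 at 48 h differed more from 96 h than from 40 h. For Slc2a3 all 48 h libraries also lay above all 40 h libraries. Slc2a1, a glucose transporter, had 903, 930 and 1040 CPM at 40 h, 1250, 926 and 991 CPM at 48 h and 156, 152 and 137 CPM at 96 h, so that the 40 h and 48 h libraries overlapped. Slc2a3, a further glucose transporter, had 2060, 2010 and 2080 CPM at 40 h, 3000, 2550 and 2610 CPM at 48 h and 444, 499 and 526 CPM at 96 h (peak adjusted p = 0.087). Hk1, which phosphorylates glucose, had 30.2, 30.2 and 34.3 CPM at 40 h, 69.2, 57.2 and 60.1 CPM at 48 h and 30.2, 33.0 and 24.9 CPM at 96 h. Its outer times overlapped, and its log2 fold change at 48 h was 0.98 over 40 h and 1.08 over 96 h (peak adjusted p = 0.0074). Gpi1, glucose-6-phosphate isomerase, had 365, 364 and 397 CPM at 40 h, 662, 643 and 569 CPM at 48 h and 205, 196 and 223 CPM at 96 h (peak adjusted p = 0.0045). Pfkfb3 makes the activator of phosphofructokinase, and had 35.0, 43.4 and 47.7 CPM at 40 h, 76.3, 93.7 and 79.0 CPM at 48 h and 10.9, 15.6 and 15.5 CPM at 96 h (peak adjusted p = 0.011). Hk1, Gpi1 and Pfkfb3 stayed peaks in the GC-offset fit and, separately, without TKO_48h replicate 1. In the GC-offset fit without that library Gpi1 and Pfkfb3 stayed peaks and Hk1 did not (peak adjusted p = 0.077).

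The aldolases Aldoa and Aldoc were peaks that did not hold in the GC-offset fit (adjusted p = 0.061 and 0.060). Aldoc did not hold without TKO_48h replicate 1 (adjusted p = 0.13). With 1 library left out, Aldoa stayed a peak in 5 of the 9 fits and Aldoc in 4. Aldoa had 1110, 1070 and 1140 CPM at 40 h, 1970, 1550 and 1660 CPM at 48 h and 307, 291 and 325 CPM at 96 h. Later steps were not peaks: Ldha, lactate dehydrogenase, had 693, 652 and 717 CPM at 40 h, 1090, 771 and 904 CPM at 48 h and 147, 157 and 170 CPM at 96 h (peak adjusted p = 0.15). Slc16a3, a lactate exporter, had 193, 177 and 201 CPM at 40 h, 286, 228 and 257 CPM at 48 h and 10.4, 16.8 and 16.4 CPM at 96 h (peak adjusted p = 0.20).

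**Figure D4:**
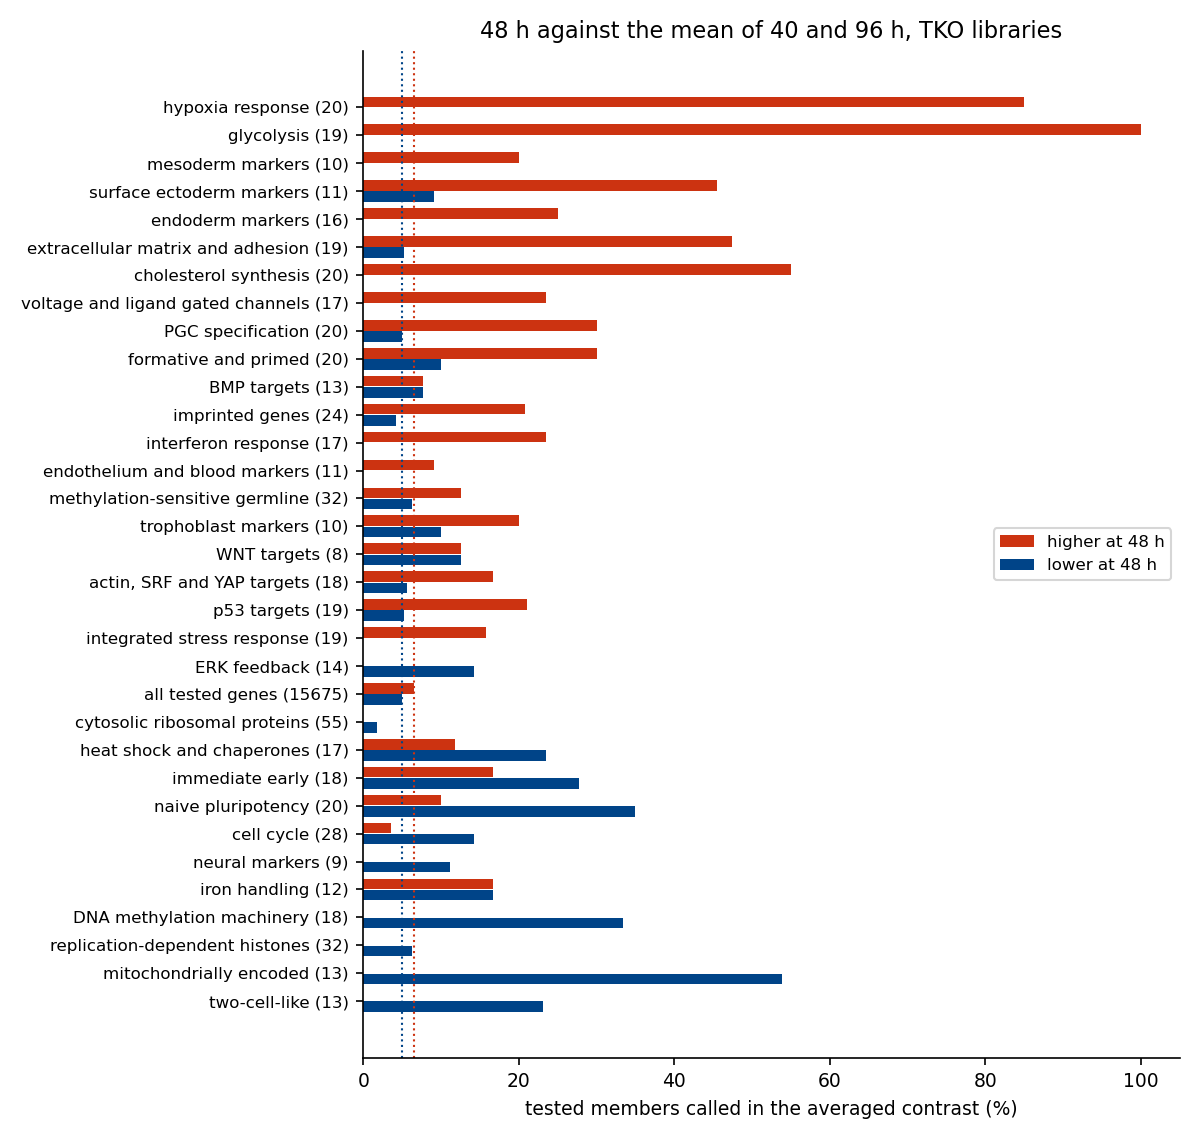
Percentage of the tested members of each list called higher or lower at 48 h than the mean of 40 and 96 h (number tested in brackets), ordered by median log2 fold change; dotted lines mark the 6.57% and 5.03% of all tested genes. Glycolysis with 19 of 19 and the hypoxia response with 17 of 20 stand farthest above the line for higher genes. The lists were chosen with earlier results of these data known.

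Over all genes, 8 peaks lasted with each of the 9 libraries left out in turn, namely Egln1, Bhlhe40, Ero1l, Lrp1, Espn, Lefty2, Gys1 and Alpk3; they are named by that rule, chosen after their values were seen. Lrp1, an endocytic receptor of the LDL receptor family, had 166, 181 and 176 CPM at 40 h, 394, 395 and 351 CPM at 48 h and 119, 156 and 146 CPM at 96 h (peak adjusted p = 0.00030). Espn, an actin-bundling protein, had 30.6, 27.6 and 23.0 CPM at 40 h, 101, 102 and 67.6 CPM at 48 h and 9.82, 15.6 and 9.92 CPM at 96 h (peak adjusted p = 0.00059). Lefty2, a secreted inhibitor of Nodal signalling, had 143, 146 and 153 CPM at 40 h, 338, 253 and 272 CPM at 48 h and 132, 140 and 167 CPM at 96 h. Its outer times overlapped and its log2 fold change was 0.97 over 40 h and 0.97 over 96 h (peak adjusted p = 0.0032). Gys1, glycogen synthase, had 45.3, 46.9 and 59.3 CPM at 40 h, 100, 94.9 and 94.9 CPM at 48 h and 40.5, 34.5 and 38.3 CPM at 96 h. Alpk3, a kinase known from heart muscle, had 9.29 to 10.7 CPM at 40 h, 23.7 to 36.5 CPM at 48 h and 8 to 8.69 CPM at 96 h. All 8 stayed peaks in the GC-offset fit, and also in that fit without TKO_48h replicate 1.

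A further set of 14 peaks held in the GC-offset fit and, separately, without TKO_48h replicate 1, though not with every library left out. Besides Ndrg1, Hk1, Gpi1 and Pfkfb3 it held Notch3, a receptor of Notch signalling, Itgb4, an integrin subunit of hemidesmosomes, Eppk1, a cytoskeletal linker, Mmp15, a membrane-bound metalloproteinase, Bsg, a partner of lactate transporters, Grin1, a subunit of NMDA receptors, and Micall2, Anxa4, Zfp395 and Gm2274. Notch3 had 90.4, 70.8 and 83.7 CPM at 40 h, 141, 152 and 149 CPM at 48 h and 61.2, 74.9 and 85 CPM at 96 h, with overlap of the outer times alone. Itgb4 had 3.71, 5.18 and 6.5 CPM at 40 h, 17.4, 21.6 and 22.6 CPM at 48 h and 6.49, 5.05 and 3.17 CPM at 96 h. In the GC-offset fit without TKO_48h replicate 1, Ndrg1, Gpi1, Pfkfb3, Itgb4 and Anxa4 stayed peaks. The rest of the 14 did not, with peak adjusted p from 0.065 (Eppk1) to 0.12 (Bsg). The GC content of Itgb4 came from a transcript of 375 bases, and the effect of that choice was not tested.

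The 12 largest increases by the naming rule were Kif17, Ndufa4l2, Hcn4, Car9, Ier3, Ebf4, Krt19, Loxl2, Col12a1, Adm, Egln3 and Grin1, with log2 fold changes between 3.78 and 2.86. All 12 were higher than at 96 h and 6 were higher than at 40 h, with 5 of them peaks. Loxl2, a lysyl oxidase-like enzyme of the extracellular matrix, had 65.0, 72.9 and 63.7 CPM at 40 h, 123, 111 and 128 CPM at 48 h and 4.23, 2.80 and 1.72 CPM at 96 h. Its peak had an adjusted p of 0.017, and 0.055 without TKO_48h replicate 1. The Loxl2 peak held in 4 of the 9 fits with 1 library left out. Kif17, a kinesin motor with the largest value, had 0.550, 2.26 and 1.16 CPM at 40 h, 5.28, 3.89 and 6.74 CPM at 48 h and 0.00, 0.280 and 0.00 CPM at 96 h, and was not a peak (adjusted p = 0.33). Hcn4, a pacemaker channel, had 1.87, 7.78 and 5.47 CPM at 48 h and at most 1.19 CPM in the other 6 libraries. Its call in the averaged contrast ended without TKO_48h replicate 2 (adjusted p = 0.053).

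Among the troughs, Egr1 and Ttn fell most of the genes whose call lasted with every library left out. Egr1, an immediate early transcription factor, had 285, 249 and 217 CPM at 40 h, 43.6, 43.2 and 27.8 CPM at 48 h and 69.3, 86.5 and 77.7 CPM at 96 h, and no groups overlapped. Its log2 fold change at 48 h was -2.71 against 40 h and -1.03 against 96 h (trough adjusted p = 0.0084), and -1.87 ± 0.15 (SE) in the averaged contrast. The immediate early list moved unevenly, with 3 of 18 tested genes higher and 5 lower in the averaged contrast, 1 peak and 1 trough, and a median of -0.11. Against 40 h alone, 9 of the 18 were lower and 1 was higher, where 2.07% and 1.85% of all tested genes were. Fosb, a Fos family member, was low at both later times, with 58.7, 56.1 and 51.3 CPM at 40 h, 3.24, 4.97 and 4.35 CPM at 48 h and 3.62, 2.52 and 1.72 CPM at 96 h, so its call in the averaged contrast (log2 fold change -1.51) was no trough. Ier3, an early response gene linked to cell survival, went the other way, with 8.38, 7.04 and 7.20 CPM at 40 h, 33.6, 20 and 19.4 CPM at 48 h and 0.755, 0.982 and 0.264 CPM at 96 h. Its peak had an adjusted p of 0.021, and of 0.11 without TKO_48h replicate 1. The Ier3 peak held in 5 of the 9 fits with 1 library left out.

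Ttn, the giant muscle protein titin, had 103, 102 and 94.6 CPM at 40 h, 19, 28.5 and 33.5 CPM at 48 h and 74.2, 140 and 110 CPM at 96 h (trough adjusted p = 0.00047). The highest 48 h library stood below the lowest of the other 6. Car2, a cytosolic carbonic anhydrase, had 112, 106 and 110 CPM at 40 h, 57.2, 48.6 and 51.6 CPM at 48 h and 86.2, 90.2 and 108 CPM at 96 h (trough adjusted p = 0.0044). Jade1, a subunit of a histone acetyltransferase complex, had 563, 548 and 548 CPM at 40 h, 360, 361 and 339 CPM at 48 h and 540, 539 and 567 CPM at 96 h (trough adjusted p = 0.0070). Egr1, Ttn, Car2 and Jade1 were troughs also in the GC-offset fit and without TKO_48h replicate 1.

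**Figure D5:**
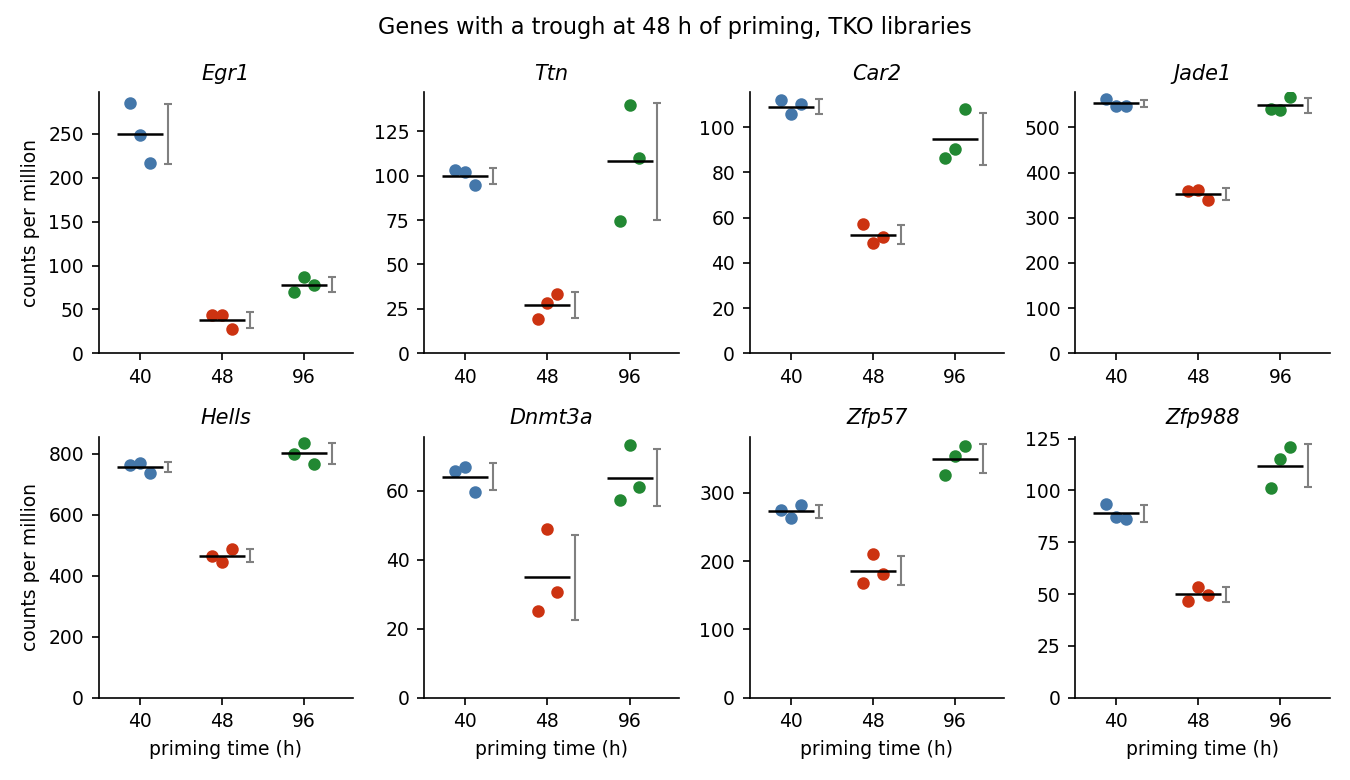
CPM of 8 trough genes in each of the 9 TKO libraries by priming time; dots are libraries, black lines group means and grey bars SD (n = 3). In all 8 panels the 48 h libraries lie below every 40 h and 96 h library, for Hells between 444 and 489 CPM.

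Of 18 tested genes of the DNA methylation machinery, 6 were lower at 48 h than the mean of 40 and 96 h, none was higher and 3 were troughs, where 5.03% of all tested genes were lower and 0.351% were troughs. The median log2 fold change was -0.27. The 6 lower genes were Hells, Zfp57, Dnmt3a, Dnmt3b, Dnmt1 and Tet1, and 3 of them are the genes targeted in these cells, whose transcripts remained in part. The same number, 6, was lower without TKO_48h replicate 1, with 1 trough, and the GC-offset fit called 8 lower, with 2 troughs. Hells, a chromatin remodeller needed for DNA methylation, had 764, 768 and 736 CPM at 40 h, 465, 444 and 489 CPM at 48 h and 799, 836 and 766 CPM at 96 h (trough adjusted p = 0.0044). The Hells trough lasted with each library left out, and ended in the GC-offset fit (adjusted p = 0.060). The GC content of Hells came from a transcript of 689 bases, and the effect of that choice was not tested. Zfp57, a zinc finger protein that guards imprinted regions, had 275, 263 and 282 CPM at 40 h, 168, 210 and 181 CPM at 48 h and 326, 354 and 369 CPM at 96 h. Its trough had an adjusted p of 0.027, 0.035 in the GC-offset fit and 0.096 without TKO_48h replicate 1. Dnmt3a had 65.7, 66.9 and 59.6 CPM at 40 h, 25.2, 48.9 and 30.6 CPM at 48 h and 57.4, 73.2 and 61.0 CPM at 96 h (trough adjusted p = 0.044, and 0.15 without TKO_48h replicate 1). Dnmt1 lost its call in the averaged contrast without TKO_40h replicate 1, TKO_48h replicate 1 or TKO_48h replicate 3 (adjusted p of at most 0.12), and Tet1 without TKO_48h replicate 1 or replicate 3 (adjusted p of at most 0.10).

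Zinc finger genes of distal chromosome 4 were mostly lower at 48 h than at both other times. Such proteins are known to direct the silencing of transposons through the cofactor Trim28. In a stretch chosen after the values were seen, chr4:145510759-147848366 (GRCm38), 19 tested protein-coding zinc finger genes were taken. All carry a Zfp symbol save Rex2, and zinc finger genes under other names, if any, were not counted. Of the 19, 16 were lower at 48 h than the mean of 40 and 96 h, none was higher and 10 were troughs. Of all tested genes, 5.03% were lower and 0.351% were troughs. Their summed level was 2920, 2860 and 2900 CPM at 40 h, 1700, 1910 and 1890 CPM at 48 h and 2740, 2960 and 3000 CPM at 96 h. The 48 h sums lay below all others, and those at 40 and 96 h overlapped. Zfp988 had 93.6, 87.3 and 86.2 CPM at 40 h, 46.5, 53.5 and 49.5 CPM at 48 h and 101, 115 and 121 CPM at 96 h (trough adjusted p = 0.0044, and 0.10 in the GC-offset fit). These genes were poor in G and C, with a median GC content of 36.5% and at most 46.2%. Their median log2 fold change was -0.58, and since the stretch was chosen by these values it is a description. Among the 4233 tested genes with a GC content up to that same maximum, 7.96% were lower and 0.945% were troughs. The median log2 fold change of those 4233 genes was -0.15. Their GC limit lies well above the median of the 19, so this is a loose comparison. In the 1 of 10 equal groups of lowest GC content (30.9 to 41.5%), the median log2 fold change was -0.22. The GC-offset fit called 9 of the 19 lower, with 2 troughs (Zfp600 and Zfp987) and a median of -0.33. The GC content used came from a transcript of 569 bases for Zfp600 (40.2%) and of 266 bases for Zfp987 (42.9%). Whether the choice of transcript affects these 2 calls was not tested. Without TKO_48h replicate 1, 15 of the 19 were lower with 4 troughs and the median was -0.59. The genes have near-identical copies, so that the split of reads among them is uncertain.

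The 12 largest decreases by the naming rule were Pgbd1, Cyp2b23, Atp1a4, Cphx1, Soga3, Ccdc7b, Pramel7, Amd1, Olfr1459, Ttn, Egr1 and Itgb1bp2, with log2 fold changes between -4.43 and -1.80. All 12 were lower than at 96 h and 7 were lower than at 40 h, with 6 of them troughs. With 1 library left out, the Olfr1459 trough held in 5 of the 9 fits and the Pgbd1 trough in 1. Olfr1459, listed as an olfactory receptor, had 141, 121 and 94.3 CPM at 40 h, 25.9, 69.3 and 44.2 CPM at 48 h and 278, 212 and 394 CPM at 96 h (trough adjusted p = 0.027, and 0.078 without TKO_48h replicate 1). Pgbd1, a gene derived from a transposase, had 8.66, 1.46 and 5.69 CPM at 40 h, 0.00, 0.671 and 0.00 CPM at 48 h and 6.19, 3.93 and 7.27 CPM at 96 h (trough adjusted p = 0.034, and 0.10 without TKO_48h replicate 1).

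Several lists held called genes in the averaged contrast with few or no peaks, where 6.57% of all tested genes were higher, 5.03% lower and 0.542% peaks. Of 20 cholesterol synthesis genes, 11 were higher, none was lower and none was a peak, with a median of 0.50. Without TKO_48h replicate 1 the count was 8. Srebf2, the transcription factor that drives the pathway, had 241, 261 and 232 CPM at 40 h, 401, 305 and 323 CPM at 48 h and 160, 186 and 190 CPM at 96 h (peak adjusted p = 0.077). Msmo1, a sterol oxidase, had 109, 115 and 110 CPM at 40 h, 193, 142 and 159 CPM at 48 h and 88.7, 62.5 and 76.7 CPM at 96 h. Of 19 extracellular matrix and adhesion genes 9 were higher and 1 lower, with 2 peaks, Col4a2 and Nid1. Nid1, a basement membrane linker, had 62.7, 63.0 and 64.0 CPM at 40 h, 114, 117 and 106 CPM at 48 h and 75.8, 74.9 and 73.2 CPM at 96 h. Both peaks ended without TKO_48h replicate 1 (adjusted p = 0.060 for Col4a2 and 0.052 for Nid1). That of Col4a2 ended also in the GC-offset fit (adjusted p = 0.16). With 1 library left out, Col4a2 stayed a peak in 5 of the 9 fits and Nid1 in 4. Of the 13 mitochondrially encoded genes 7 were lower, with a median of -0.53 and a median GC content of 37.1%, and the GC-offset fit called 2.

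Among germ cell genes, 6 of 20 in the PGC specification list were higher (4 without TKO_48h replicate 1), 1 was lower and none was a peak, beside the same shares of all tested genes. Prdm1, the regulator that starts the germ cell program, had 20.7, 19.5 and 22.3 CPM at 40 h, 36.8, 27.8 and 37.9 CPM at 48 h and 11.2, 7.15 and 12.8 CPM at 96 h. The groups did not overlap, but the peak did not pass (adjusted p = 0.18). Tfap2c, its partner in the program, had 46.6, 54.7 and 44.1 CPM at 40 h, 65.1, 74.6 and 64.4 CPM at 48 h and 26.9, 35.5 and 22.1 CPM at 96 h (peak adjusted p = 0.24). Dppa3 had 56.6, 51.5 and 46.0 CPM at 40 h, 60.1, 39.3 and 41.3 CPM at 48 h and 21, 17.5 and 17.2 CPM at 96 h, and its call in the averaged contrast ended without TKO_48h replicate 1 (adjusted p = 0.13). Dazl, a germ cell RNA-binding protein, was a trough (adjusted p = 0.028), with 113, 114 and 82.7 CPM at 40 h, 49.7, 46.8 and 60.2 CPM at 48 h and 94.1, 78.1 and 85.5 CPM at 96 h. That call ended without TKO_48h replicate 1 (adjusted p = 0.10) and in the GC-offset fit (adjusted p = 0.35). Of 20 naive pluripotency genes 7 were lower and 2 higher, with no trough. The GC-offset fit called 5 lower and 1 higher, and the fit without TKO_48h replicate 1 called 6 lower and 1 higher. Tested against 40 h alone none of the 20 was lower. Against 96 h alone 8 were lower, where 8.3% of all tested genes were. Klf4 had 43.6, 38.9 and 50.5 CPM at 40 h, 34.2, 32.9 and 25.7 CPM at 48 h and 69.0, 75.2 and 92.0 CPM at 96 h.

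Markers of other cell types were measured in the same libraries. Of all tested genes, 6.57% were higher and 5.03% lower at 48 h than the mean of 40 and 96 h. Of 11 tested genes listed as surface ectoderm markers 5 were higher and 1 was lower. The higher genes included the keratins Krt8, Krt18 and Krt19, and bulk counts cannot tell which cell type expressed them. Against 40 h alone 1 of the 11 was higher and 1 lower. Against 96 h alone 7 were higher, where 9.68% of all tested genes were. The list summed to 857 to 910 CPM at 40 h, 734 to 950 CPM at 48 h and 544 to 564 CPM at 96 h, and Krt14 had no count in the 9 libraries. Of 16 endoderm markers 4 were higher, with sums of 331 to 411 CPM at 40 h, 464 to 518 CPM at 48 h and 319 to 412 CPM at 96 h. Of 10 mesoderm markers 2 were higher, with sums of 47.6 to 71.6 CPM at 40 h, 73.5 to 78.2 CPM at 48 h and 33.0 to 37.5 CPM at 96 h, and Msgn1 had no count. Trophoblast markers, with 2 of 10 higher and 1 lower, summed to 3180 to 3320 CPM at 40 h, 1610 to 2210 CPM at 48 h and 451 to 563 CPM at 96 h. Neural markers had 1 of 9 lower, and endothelium and blood markers 1 of 11 higher. The GC-offset fit and the fit without TKO_48h replicate 1 each called 1 mesoderm marker higher, and the fit without that library called no surface ectoderm or trophoblast marker lower and 2 neural markers lower. The part of these cell types in the results above was not tested.

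The other lists are given beside the 6.57% higher and 5.03% lower of all tested genes. Of 19 p53 targets 4 were higher and 1 lower; the GC-offset fit called 2 higher and none lower, and the fit without TKO_48h replicate 1 called none. Of 32 replication-dependent histones 2 were lower, against 6 in the GC-offset fit and 8 without TKO_48h replicate 1. Cytosolic ribosomal proteins had 1 lower of 55 tested and a median of -0.02. The cell cycle list had 1 higher and 4 lower of 28, with 3 higher in the GC-offset fit. The heat shock list had 2 higher and 4 lower of 17, with 1 higher in either of those fits. Its member Hsph1 was a trough (adjusted p = 0.022, and 0.052 in the GC-offset fit). That trough held in 3 of the 9 fits with 1 library left out. ERK feedback genes had 2 lower of 14, and 1 without TKO_48h replicate 1. The integrated stress response had 3 higher of 19, and 2 higher and 1 lower in either fit.

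Formative and primed genes had 6 higher and 2 lower of 20. Imprinted genes had 5 higher and 1 lower of 24, with none lower in the GC-offset fit. Methylation-sensitive germline genes had 4 higher and 2 lower of 32, and 6 higher in the GC-offset fit. Two-cell-like genes had 3 lower of 13, and 2 in the GC-offset fit. BMP targets (13 tested) had 1 higher and 1 lower, with 2 higher in the GC-offset fit and none higher without TKO_48h replicate 1. WNT targets (8 tested) had 1 higher and 1 lower, with none lower without that library. Interferon response genes had 4 higher of 17, and gated channels 4 higher of 17 with 2 peaks. Actin, SRF and YAP targets had 3 higher and 1 lower of 18, and 2 higher in either fit. Iron handling genes had 2 higher and 2 lower of 12.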

How the data were processed

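RNA of 12 PGCLC cultures was sequenced from SMARTer Stranded Total RNA Pico libraries, per the labels' protocols. The authors deposited kallisto estimated counts per transcript (expected counts, not scaled), transcript and effective lengths in bases, and TPM. No test was run on TPM. Mean TPM over the 12 libraries weighted the transcripts of a gene in the effective length offset. The GC content of a gene was that of its transcript with the highest mean TPM. The submitters' processing notes name Trim Galore 0.6.2 for trimming and the build GRCm38. Which kallisto version and transcript set they used is not given in the sources used here. Estimated counts were summed per gene through GENCODE M21 (116728 of 119414 transcripts matched) and rounded. Genes were kept by edgeR's filterByExpr (minimum count 10, total 15). edgeR 4.0.16 (R 4.3.3) quasi-likelihood tests were fitted to the 9 TKO libraries, 1 mean per group, with TMM factors from all 12 libraries and Benjamini-Hochberg adjustment over 15675 genes. Every adjusted p in the text is from these tests unless another tool is named. Peaks and troughs took the larger p of 48 h against 40 h and of 48 h against 96 h where both had the same sign. CPM are on TMM-scaled library sizes. The labels call replicates biological, but give no cultures or dates, so p-values measure the spread between these samples.

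In simulated counts (15218 genes) the averaged contrast recovered 78% of 2-fold and 97% of 4-fold changes. The peak or trough test recovered 59% and 92%. These rates are for simulated counts, and recovery in the 9 libraries themselves is not known.

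Genes named are, among called genes of at least 5 CPM with all 48 h libraries on one side, protein coding and with no predicted name, the 12 largest changes each way, and called members of each list; others are said to be chosen after their values were seen. The members and lists were chosen with earlier results of these data known. The GC-offset fit, also without TKO_48h replicate 1, and a fit without TKO_48h replicate 1 and TKO_96h replicate 1 were added after the data were seen: per library, a smooth trend of log2 deviation on transcript GC content entered as an offset. Counts are over whole genes, and genes with near-identical copies are uncertain.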

Additional observations from a re-analysis of the deposited data

Results flagged for a closer look

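Transcripts whose identifiers had no match in GENCODE M21 were outside every comparison. They took a mean of 3.82% of estimated counts in the 48 h libraries (3.40 to 4.32%), against 2.99% in the 6 libraries at 40 and 96 h (2.68 to 3.32%). The 48 h values lay above all others, in counts that no test used.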

How the results depend on the processing

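None of the called genes among the 182 followed singly changed sign under the alternatives run, and Nanog, near 0 and not called, did. RLE factors, TMM factors from the 9 TKO libraries, the effective length offset, the robust fit and protein-coding genes alone kept the counts of called, higher, lower, peak and trough genes over all genes within 1.5 times, at 1813 to 1956 called genes, though counts of some small lists moved more. DESeq2 1.42.0 gave 135 peaks and 96 troughs, no filter on low counts gave 201 and 182, and all 12 libraries in the fit gave 151 and 107. The GC-offset fit gave 41 peaks and 31 troughs, with 1656 called genes of which 1336 were among the 1818. With 8 libraries it gave 678 higher genes, 15 peaks and 9 troughs. Without both TKO_48h replicate 1 and TKO_96h replicate 1 there were 1696 called genes, 86 peaks and 80 troughs. Leaving out each library in turn gave 1041 to 1724 called genes (1041 without TKO_48h replicate 3), 680 to 985 higher, 361 to 812 lower, 10 to 117 peaks and 6 to 141 troughs, and 934 to 2005 genes for 96 h against 40 h; these fits have fewer samples, and 7 to 24 of the 182 genes followed singly lost their call in the averaged contrast, against 8 in the GC-offset fit and 0 to 3 in the other fits that kept all 9 libraries. Without TKO_40h replicate 1 or replicate 2, 490 and 524 genes were lower. Replicate numbers did not pair the libraries (correlations of -0.063 to 0.060), and the fit with the replicate block called 1935 genes, with 88 peaks and 65 troughs. Beyond the GC fits, the cause of these differences was not tested. Low-count genes limit the folds of Kif17, Pgbd1 and Atp1a4.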

Other observations

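The WT_40h libraries, which entered no comparison, lay on the side of 48 h for most of the 140 genes. WT_40h averaged above TKO_40h in 75 of the 85 peaks (88.2%) and below it in 50 of the 55 troughs (90.9%), where 49.3% and 50.6% of all tested genes did. It exceeded TKO_48h in 3 of the peaks. Since the 140 genes were chosen partly by their TKO_40h values, these shares are a description and were not tested. Egln1 had 178, 183 and 161 CPM in TKO_48h and 75.0, 73.1 and 73.7 CPM in TKO_40h, against 137, 141 and 123 CPM in WT_40h. Lrp1 had 394, 395 and 351 CPM in TKO_48h and 166, 181 and 176 CPM in TKO_40h, against 353, 313 and 347 CPM in WT_40h. Egr1 had 43.6, 43.2 and 27.8 CPM in TKO_48h and 285, 249 and 217 CPM in TKO_40h, against 140, 134 and 149 CPM in WT_40h.

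Bsg, a membrane partner of lactate transporters, was a peak with 339, 335 and 326 CPM at 40 h, 610, 474 and 494 CPM at 48 h and 225, 203 and 218 CPM at 96 h. Hk2, a further hexokinase, had 338, 375 and 381 CPM at 40 h, 578, 471 and 448 CPM at 48 h and 263, 290 and 400 CPM at 96 h (peak adjusted p = 0.20).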
